A study of Mus musculus with 8 samples.

Results

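Janus kinases (JAKs) sit on the cytoplasmic tails of cytokine receptors. When a cytokine joins the receptor chains, the kinases phosphorylate each other and the receptor, and the STAT factors that dock there are phosphorylated, pair up and enter the nucleus as transcription factors. In neutrophils the pathway is best known for the signal of granulocyte colony-stimulating factor through STAT3 and STAT5 and for interferon signals through STAT2. More widely, STAT6 carries signals of interleukin-4 and interleukin-13, and STAT4 those of interleukin-12, with its target genes described in lymphocytes.

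The genes described here are 6 STAT genes (Stat2, Stat3, Stat4, Stat5a, Stat5b and Stat6) and 3 kinase genes (Jak1, Jak2 and Tyk2), with Stat4 set against the rest. They were found by matching the Ensembl identifiers of the count tables to gene symbols in the GENCODE M21 annotation, and all 9 were found among the 55414 identifiers listed. RNA came from spleen neutrophils of 4 WT mice (strain FVB-WT) and 4 Cxcr2-/- mice, which carry a germline knockout of the chemokine receptor Cxcr2 and were backcrossed to the FVB background (strain FVB-Cxcr2-/-). All mice were 10 weeks old and housed under SOPF (specific and opportunistic pathogen free) conditions, and the labels name no treatment. Neutrophils were enriched by positive selection for CD11b and sorted by flow cytometry as CD45+ CD11b+ Ly6G+ cells without F4/80, and 1 RNAseq library was made per mouse after depletion of ribosomal RNA. Expression is given as CPM, a gene's counts scaled to the same library total in all samples after TMM normalization, and as mean ± SD with n = 4 per group. Changes are log2 fold changes of Cxcr2-/- over WT from the quasi-likelihood test of edgeR, with a standard error (SE). The SE was derived as the size of the log2 fold change divided by the square root of the test's F statistic. The p-values were adjusted by the Benjamini-Hochberg method over all 16778 genes tested, and a gene passed when its adjusted p was under 0.05.

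Each WT library held between 34220182 and 46233555 counts on genes, and each Cxcr2-/- library between 37549648 and 43789253. The share of read pairs that met no gene was 31.4% to 41.5% in WT and 26.7% to 31.9% in Cxcr2-/- libraries. Cxcr2, the targeted gene, fell from 1956 ± 221 CPM to 17.1 ± 3.46 CPM (log2 fold change -6.84). Of 10 neutrophil marker genes, 8 were higher and 1 was lower in Cxcr2-/- samples, with Ly6g between 166 and 263 CPM in WT and between 488 and 597 CPM in Cxcr2-/-. All 6 markers of neutrophil precursors were higher, with Elane, the neutrophil elastase gene, at 0.289 to 2.11 CPM in WT and 12 to 93.2 CPM in Cxcr2-/-. In RNA of whole sorted samples, fewer cells of a type and less RNA per cell cannot be told apart.

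Because Stat4 and Stat2 gave the largest changes among the STAT genes in each direction, the 250 bases before their annotated starts are shown, from RefSeq (GRCm38.p6, plus strand). Capitals mark matches to motifs of the kinds that STAT factors bind, which are descriptions and not shown sites. The search covered 300-base windows (250 bases before to 50 after a start) on both strands for the gamma-activated site (TTC, any 3 bases, GAA), the wider site preferred by STAT6 (TTC, any 4 bases, GAA) and an interferon-stimulated response element (GAAA, any 2 bases, GAAA), which is bound by STAT2 complexes. The first Stat4 start held none of the 3. The second, which lies inside the gene, held an interferon-stimulated response element that begins 97 bases before the start. The Stat2 window held such an element on the opposite strand from 222 bases before the start, next to a STAT6-type site from 210 bases before it, and the motifs do not overlap.
Stat4, first start, chr1:51986898-51987147: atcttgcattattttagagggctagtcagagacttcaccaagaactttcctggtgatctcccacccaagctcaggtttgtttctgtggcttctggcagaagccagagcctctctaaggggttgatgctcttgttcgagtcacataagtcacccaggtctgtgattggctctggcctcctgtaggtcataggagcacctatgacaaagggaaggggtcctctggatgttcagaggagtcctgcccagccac
Stat4, second start, chr1:52007990-52008239: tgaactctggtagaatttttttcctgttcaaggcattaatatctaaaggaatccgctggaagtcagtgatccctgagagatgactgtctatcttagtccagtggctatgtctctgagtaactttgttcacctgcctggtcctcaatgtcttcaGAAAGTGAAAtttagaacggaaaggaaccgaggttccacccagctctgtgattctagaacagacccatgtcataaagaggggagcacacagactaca
Stat2, chr10:128270248-128270497: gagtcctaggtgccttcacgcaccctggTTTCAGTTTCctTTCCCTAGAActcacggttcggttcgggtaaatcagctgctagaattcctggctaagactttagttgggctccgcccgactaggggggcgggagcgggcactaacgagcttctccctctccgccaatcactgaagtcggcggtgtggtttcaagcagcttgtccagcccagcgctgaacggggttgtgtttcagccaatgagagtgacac

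All 9 genes had a window in the RefSeq table, 12 windows in all, and the other 9 windows, those of every kinase gene and of Stat3, Stat5a, Stat5b and Stat6, held none of the 3 motifs in these letters. Among 32851 windows of all genes, 8.30% held the gamma-activated site, 6.95% the STAT6-type site and 3.44% the interferon-stimulated response element.

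All 9 genes were expressed above the filter on low counts and were tested. In Cxcr2-/- neutrophils 5 of them were lower (Stat4, Stat6, Stat5b, Jak2 and Jak1), 1 was higher (Stat2), and Stat3, Stat5a and Tyk2 did not pass. Of all genes tested 44.7% passed, 21.0% lower and 23.7% higher. Upper-quartile scaling moved the calls of all genes from 3526 lower and 3969 higher to 4391 lower and 3076 higher, and the median log2 fold change of all genes from 0.01 to -0.11. The median of the 9 genes was -0.41. With a change of at least 1.5-fold as well, 2 genes were lower (Stat4 and Stat6) and Stat2 alone was higher, where 31.3% of all genes passed, 15.7% lower and 15.7% higher. Stat2 lay on that threshold, at 1.51-fold, and did not pass it in 9 of 10 other settings, DESeq2 among them (log2 fold change 0.58). The groups did not overlap for 7 of the 9 genes, 5 lower and 2 higher (Stat2 and Tyk2), and did not overlap for 41.6% of all genes, 19.1% lower and 22.5% higher.

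**Figure D1:**
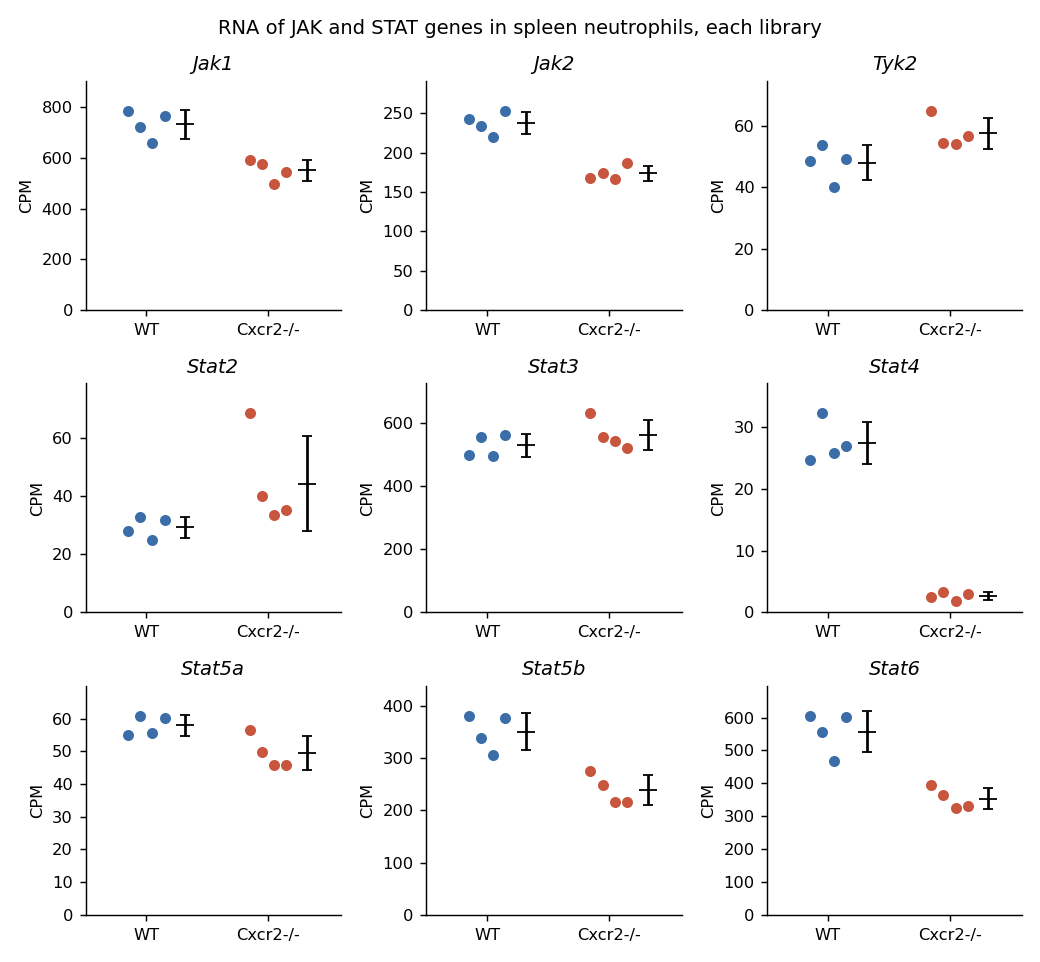
CPM of each of the 9 genes in every library (points; linear axes from 0), WT in blue and Cxcr2-/- in red, with mean and SD (black, n = 4 per group). Stat4 lies between 24.7 and 32.2 CPM in WT and at most at 3.32 CPM in Cxcr2-/-, and 1 Cxcr2-/- library stands above the others for Stat2.

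Stat4, the STAT factor that mediates interleukin-12 signals, lies on chromosome 1 from 51987148 to 52107189 of GRCm38 on the plus strand (ENSMUSG00000062939). Its level was 24.7, 32.2, 25.9 and 26.9 CPM in WT replicates 1 to 4. In Cxcr2-/- replicates 1 to 4 it was 2.43, 3.32, 1.83 and 2.97 CPM. Every WT library was far above every Cxcr2-/- library, and the lowest WT value was 7.44 times the highest Cxcr2-/- value. The mean fell from 27.4 ± 3.33 to 2.64 ± 0.651 CPM, 10.4-fold (log2 fold change -3.38, SE 0.18, edgeR quasi-likelihood, Benjamini-Hochberg adjusted p = 7.77e-08). Only 0.149% of all genes tested had a log2 fold change as low as or lower than that of Stat4. These values rest on 931 to 1604 counts per WT library and 72 to 122 counts per Cxcr2-/- library.

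T cells and natural killer cells also express Stat4. Their markers were therefore set beside it. The summed level of the 9 T cell markers was 114 to 136 CPM in WT and 101 to 152 CPM in Cxcr2-/-, mostly from Cd3d, which was 80.1 to 110.1 CPM in WT and 87.3 to 136 CPM in Cxcr2-/-. Cd3e, which encodes another chain of the T cell receptor complex, was at 0.0442 to 0.563 CPM in WT and 0.0277 to 0.194 CPM in Cxcr2-/-. Of the 5 T cell markers tested 2 were lower and none was higher (Cd4 and Cd5, named like Cd3d after their values were seen). The 8 natural killer cell markers summed to 1.13 to 11.8 CPM in WT and 5.15 to 13.7 CPM in Cxcr2-/-, 1 of them higher and none lower, with Ncr1 at 0.160 to 1.33 and 0.609 to 0.986 CPM. Both sums overlapped between the groups.

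Markers of B cells summed to 68.5 to 149.5 CPM in WT and 37.5 to 77.6 CPM in Cxcr2-/- (4 of 6 lower, Cd79a at 4.88 to 10.9 and 5.47 to 6.19 CPM), and markers of monocytes or macrophages to 442 to 541 and 202 to 298 CPM (2 of 6 lower, Csf1r at 403 to 499 and 189.6 to 269 CPM). Markers of dendritic cells summed to 7.12 to 31.4 CPM in WT and 4.57 to 9.09 CPM in Cxcr2-/- (1 of 4 tested lower), those of erythroid cells to 1.76 to 4.60 and 1.63 to 12.1 CPM (none of 4 tested passed), and those of megakaryocytes to 5.88 to 7.88 and 3.85 to 6.29 CPM (1 of 2 tested lower). No marker of T cells, natural killer cells, B cells, monocytes, neutrophils or precursors was at 0 in all libraries. With T and natural killer cell markers as a covariate, Stat4 was at -3.38 (edgeR quasi-likelihood, Benjamini-Hochberg adjusted p = 1.53e-07). That fit does not measure the number of such cells in a sample. Beyond it, the part of these other cell types and of the precursors in the change of Stat4 was not tested.

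Stat4 lies 22.1 Mb from Cxcr2 on chromosome 1, measured between the gene centres. Within 1 Mb of Stat4 on each side, a distance chosen after the values were seen, 16 other genes were tested, of which 7 were lower and 2 were higher, with a median log2 fold change of -0.33. Gm28177, annotated on the same strand inside Stat4, had 11 to 18 counts in WT and 0 to 4 in Cxcr2-/- libraries and was not tested. Gm3940, a pseudogene on the opposite strand within the bounds of Stat4, had 27 to 110 counts in WT and 0 to 13 in Cxcr2-/- libraries (log2 fold change -3.50, SE 0.69). Reads of overlapping genes cannot be assigned with certainty, since the strand setting of the counting was not given in the sources used here.

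The change of Stat4 was then compared with that of each other gene within a library, as the log2 ratio of their counts, which does not depend on the scaling of the library. Each of the 8 ratios was lower in every Cxcr2-/- library than in any WT library. The difference between the group means was -3.94 relative to Stat2, -3.67 relative to Tyk2 and -3.49 relative to Stat3. Relative to Stat5a, which like Tyk2 and Stat3 did not pass, it was -3.17. Among the genes that fell it was -2.99 relative to Jak1, -2.95 relative to Jak2 and -2.85 relative to Stat5b. The smallest difference, relative to Stat6, was -2.75, from -4.34 ± 0.242 in WT to -7.09 ± 0.361 in Cxcr2-/-. In an exact permutation test, two-sided, each ratio had p = 0.0286, the smallest that 4 mice against 4 can give, which stayed at 0.0286 after Benjamini-Hochberg adjustment over the 8 ratios. All 8 ratios share the same Stat4 counts, so their p-values are not 8 separate results. The genes were also chosen with earlier results of these data known, so these p-values add no support to the fall of Stat4. The differences describe its size, with Stat4 lower relative to each of the other 8 genes, those that fell themselves included.

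**Figure D2:**
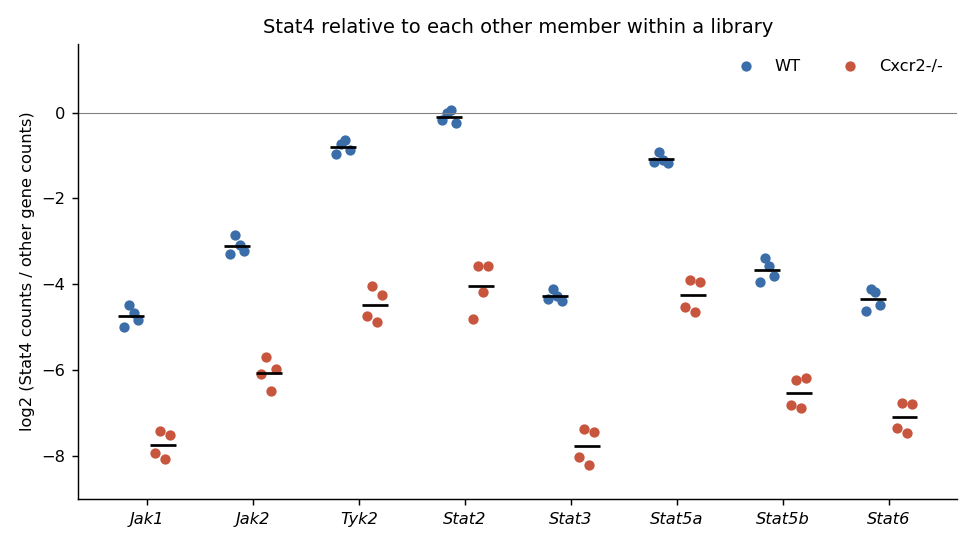
Log2 ratio of Stat4 counts to the counts of each other gene in the same library (points; lines are group means), WT in blue and Cxcr2-/- in red, with 4 libraries per group. For all 8 genes the red points lie below the blue points, by -2.75 (Stat6) to -3.94 (Stat2) in the group means.

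Stat6, the factor activated by interleukin-4 and interleukin-13 (chromosome 10 from 127642986 to 127660957, plus strand), was at 605, 555, 469 and 600.4 CPM in WT replicates 1 to 4. It was at 395, 363, 325 and 331 CPM in the Cxcr2-/- replicates. The groups did not overlap, with WT replicate 3 the lowest of its group. Stat6 fell 1.58-fold, from 557 ± 63.3 to 353 ± 32.4 CPM (log2 fold change -0.66, SE 0.11, edgeR quasi-likelihood, Benjamini-Hochberg adjusted p = 4.27e-04).

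Stat5a and Stat5b are close paralogs that carry signals of growth factors such as granulocyte colony-stimulating factor. They lie side by side on chromosome 11, Stat5b from 100780731 to 100850724 on the minus strand and Stat5a from 100859351 to 100885169 on the plus strand, and reads from stretches that are alike in both may have been lost or split in the counting. Stat5b was at 381, 338, 307 and 377 CPM in WT and at 275, 249, 216 and 216 CPM in Cxcr2-/- replicates 1 to 4. The groups were apart, and Stat5b fell from 351 ± 35.1 to 239 ± 28.4 CPM (log2 fold change -0.55, SE 0.11, edgeR quasi-likelihood, Benjamini-Hochberg adjusted p = 0.00153). Stat5a, at a lower level, was at 54.9, 60.8, 55.6 and 60.3 CPM in WT. In Cxcr2-/- it was at 56.6, 49.9, 45.7 and 45.7 CPM. Cxcr2-/- replicate 1 lay within the WT range, and Stat5a did not pass (log2 fold change -0.23, SE 0.09, edgeR quasi-likelihood, Benjamini-Hochberg adjusted p = 0.0654). Without that replicate Stat5a passed as lower (-0.29, adjusted p = 0.0180). It also passed as lower with upper-quartile scaling (-0.35, adjusted p = 0.00739) and with scaling by total counts (-0.32, adjusted p = 0.00850).

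Stat3, a main effector of granulocyte colony-stimulating factor and interleukin-6 (chromosome 11 from 100885098 to 100939540, minus strand), was at 498, 557, 496 and 563 CPM in WT. It was at 630.1, 554, 542 and 519 CPM in Cxcr2-/- replicates 1 to 4. The groups overlapped, at 528 ± 36.5 and 561 ± 48.1 CPM, and the difference did not pass (log2 fold change 0.09, SE 0.10, edgeR quasi-likelihood, Benjamini-Hochberg adjusted p = 0.510). Its sign turned with upper-quartile scaling (-0.03) and with scaling by total counts (-0.01). The 3' ends of Stat3 and Stat5a overlap by 72 bases on opposite strands.

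Stat2, which with a partner STAT and IRF9 forms the complex that carries type I interferon signals (chromosome 10 from 128270559 to 128292849, plus strand), was at 28.0, 32.6, 24.7 and 31.7 CPM in WT. In Cxcr2-/- replicates 1 to 4 it was at 68.3, 40.0, 33.4 and 35.3 CPM. The first Cxcr2-/- replicate stood well above the other 3, and the lowest Cxcr2-/- value was only 1.02 times the highest WT value. Stat2 rose 1.51-fold, from 29.3 ± 3.63 to 44.2 ± 16.3 CPM (log2 fold change 0.60, SE 0.20, edgeR quasi-likelihood, Benjamini-Hochberg adjusted p = 0.0268). Without Cxcr2-/- replicate 1 the log2 fold change was 0.31 (adjusted p = 0.0472). The call was lost without WT replicate 1 (0.58, adjusted p = 0.0644), without WT replicate 3 (0.50, adjusted p = 0.0789) and with upper-quartile scaling (0.47, adjusted p = 0.0638). With the share of pairs that met no gene as a covariate it was also lost (0.22, SE 0.37, adjusted p = 0.726). That share largely followed the genotype (31.4% to 41.5% in WT, 26.7% to 31.9% in Cxcr2-/-), so this fit cannot separate the covariate from the genotype. Cxcr2-/- replicate 1 had the lowest such share, 26.7%, and also the highest values of the interferon-induced genes Oas1a (33 CPM, the others at 18.3 to 20.7 CPM) and Oas2 (139 CPM, the others at 60.4 to 73.4 CPM). What part the other differences of that library have in the change of Stat2 was not tested.

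Among the kinases, Jak1 is used by receptors of interferons, interleukin-6 and interleukin-10, Jak2 by those of colony-stimulating factors, and Tyk2 by those of type I interferon and interleukin-12. Jak1 (chromosome 4 from 101152367 to 101265282, minus strand) was at 785, 720.2, 659 and 764 CPM in WT and at 592, 574, 496 and 542 CPM in Cxcr2-/- replicates 1 to 4. Its groups did not overlap, and it fell from 732 ± 55.8 to 551 ± 41.9 CPM (log2 fold change -0.41, SE 0.10, edgeR quasi-likelihood, Benjamini-Hochberg adjusted p = 0.00554). Jak2 (chromosome 19 from 29251828 to 29313080, plus strand) was at 243, 234, 219.8 and 253 CPM in WT and at 167, 174, 166 and 187 CPM in Cxcr2-/-. Every WT library was above every Cxcr2-/- library, and Jak2 fell from 237 ± 14.1 to 174 ± 9.57 CPM (log2 fold change -0.45, SE 0.09, edgeR quasi-likelihood, Benjamini-Hochberg adjusted p = 0.00116). Tyk2 (chromosome 9 from 21104068 to 21131243, minus strand) was at 48.5, 53.8, 40.2 and 49.4 CPM in WT and at 64.9, 54.6, 54.0 and 56.7 CPM in Cxcr2-/-. Its groups did not overlap, but the lowest Cxcr2-/- value and the highest WT value were close together. The difference did not pass (48.0 ± 5.66 and 57.5 ± 5.03 CPM, log2 fold change 0.26, SE 0.10, edgeR quasi-likelihood, Benjamini-Hochberg adjusted p = 0.0577).

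**Figure D3:**
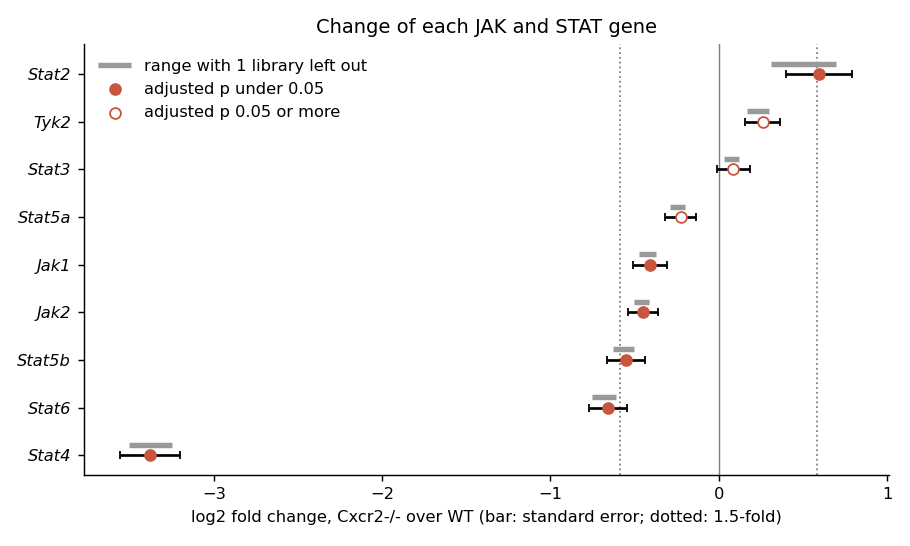
Log2 fold change of Cxcr2-/- over WT for each gene (points, with bars for the SE; filled where adjusted p was under 0.05), with the range over fits that leave out 1 library (grey) and lines at 0 and at 1.5-fold (dotted). Stat4 at -3.38 stands apart from the other 8 genes, which lie between -0.66 (Stat6) and 0.60 (Stat2), and the grey range of Stat2 is the widest of those 8.

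To compare the level of the genes with each other, CPM was divided by the length of all annotated exons of each gene. This was 9527 bases for Stat3 and 5539 bases for Stat5b. The transcripts in use may be shorter, so the order and the shares of sums depend on these lengths. Before the division Stat3 was above Stat5b in WT (528 and 351 CPM) and in Cxcr2-/- (561 and 239 CPM). In WT neutrophils Stat6 was the highest at 126.6 ± 14.4 CPM per kb, followed by Jak1 at 101.3 ± 7.72, whose values overlapped those of Stat6. Stat5b at 63.3 ± 6.34 and Stat3 at 55.5 ± 3.83 CPM per kb also overlapped, with Jak2 below them at 47.2 ± 2.80 CPM per kb. The remaining 4 genes were much lower, with Stat5a at 8.12 ± 0.435, Stat4 at 7.08 ± 0.860, Tyk2 at 6.99 ± 0.824 and Stat2 at 4.94 ± 0.612 CPM per kb. Neighbours in the order overlapped from Stat5a to Tyk2, and Stat2 was apart.

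In Cxcr2-/- neutrophils Stat6 at 80.3 ± 7.36 and Jak1 at 76.3 ± 5.80 CPM per kb were again the highest and overlapped. Stat3 at 58.9 ± 5.05 CPM per kb came before Stat5b at 43.2 ± 5.13 without overlap, whereas these genes overlapped in WT. Jak2 was at 34.5 ± 1.90. Tyk2 at 8.38 ± 0.733, Stat2 at 7.46 ± 2.75 and Stat5a at 6.94 ± 0.720 CPM per kb overlapped with their neighbours. Stat4 moved from the middle of the low group to last place, at 0.681 ± 0.168 CPM per kb.

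Summed over the 6 STAT genes, the level was 265.5 ± 23.0 CPM per kb in WT and 197 ± 20.6 CPM per kb in Cxcr2-/-. Stat4 made up 2.68% ± 0.374 of this sum in WT and 0.347% ± 0.0904 in Cxcr2-/- samples. The share of Stat6 was 47.6% ± 1.6 in WT and 40.7% ± 0.717 in Cxcr2-/-, and that of Stat3 was 21.0% ± 1.56 and 29.9% ± 0.968. For Stat4, Stat6 and Stat3 the shares did not overlap between the groups. The 3 kinases summed to 155 ± 10.8 and 119 ± 6.58 CPM per kb.

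**Figure D4:**
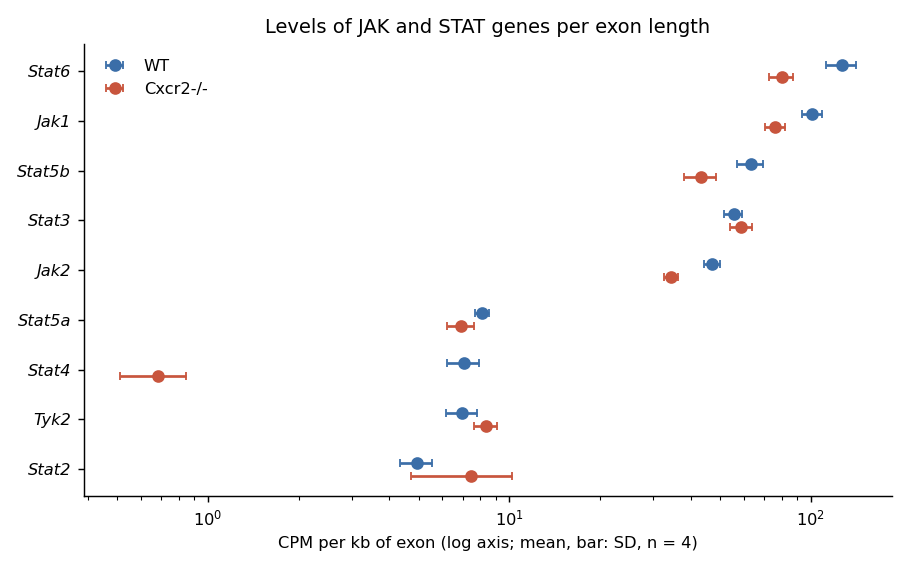
CPM per kb of exon of each gene (log axis; points are means and bars the SD, n = 4 per group), WT in blue and Cxcr2-/- in red. Stat6 and Jak1 are highest in both groups, and Stat4 is at 7.08 in WT and 0.681 in Cxcr2-/-.

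Around these genes, 90 further genes of the pathway were listed by role, of which 79 were expressed enough to be tested. Of the 79, 24 were lower, 18 were higher and 37 did not pass, so that 53.2% passed where 44.7% of all genes did, with a median log2 fold change of -0.17. Some genes stand in more than 1 list, and the counts of each list are given without a test of the list.

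Of 36 cytokine receptor chains that bind JAKs, 27 were tested, 6 lower and 7 higher, with a median of -0.14. Csf3r, the receptor of granulocyte colony-stimulating factor, fell from 6960 ± 462 to 3334 ± 147 CPM (log2 fold change -1.06). Il10ra, a chain of the interleukin-10 receptor, fell by 0.94 on the log2 scale, from 174 ± 33.6 to 91.0 ± 21.2 CPM. Csf2rb2, a beta chain of the mouse interleukin-3 receptor, rose from 79.4 ± 9.21 to 203 ± 15 CPM (1.35), and Il4ra, the chain that recruits STAT6, rose from 339 ± 29.6 to 557 ± 55.4 CPM (0.72). For each of these 4 receptor genes the groups did not overlap. Il12rb1 and Il12rb2 encode the interleukin-12 receptor chains and are given here after their values were seen. In WT they were at 2.10 ± 0.191 and 1.26 ± 0.706 CPM. In Cxcr2-/- they were at 1.63 ± 0.418 and 0.763 ± 0.295 CPM, and neither passed.

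Of 21 negative regulators, 20 were tested, 6 lower and 4 higher, with a median of -0.03. Ptprc, the CD45 phosphatase used in the sort, fell from 4354 ± 218 to 2553 ± 227 CPM (log2 fold change -0.77). Socs1, a feedback inhibitor of JAKs, fell from 14.7 ± 2.12 to 10.0 ± 2.79 CPM (-0.55), with overlapping groups. Ptpn11, the phosphatase SHP-2, rose from 54.2 ± 5.76 to 85.6 ± 13.1 CPM (0.66) and Socs6 from 7.59 ± 0.690 to 10.2 ± 1.09 CPM (0.43). Cish and Socs5 also passed but lay under the level set for naming (average log2 CPM of 3). Cish rose from 1.23 ± 0.204 to 4.06 ± 1.33 CPM (1.72) and stands among the targets of STAT3 and STAT5 too. Socs5 fell from 6.76 ± 1.12 to 3.94 ± 1.04 CPM (-0.78).

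The target genes of each STAT factor moved in both directions. Of 12 interferon targets, all tested, 4 were lower and 3 higher, with a median of -0.29. Rsad2, which encodes the antiviral protein viperin, fell from 19.4 ± 4.73 to 5.03 ± 1.42 CPM (log2 fold change -1.95) and Isg15, a ubiquitin-like modifier, from 13.3 ± 1.21 to 7.65 ± 2.80 CPM (-0.79). Oas2 and Oas1a, which make the activator of RNase L, rose from 27.4 ± 5.31 to 85.6 ± 36.1 CPM (1.65) and from 7.45 ± 1.39 to 22.6 ± 7.0 CPM (1.6).

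Of 14 targets of STAT3 and STAT5, 13 were tested, 6 lower and 3 higher, with a median of -0.37. The kinase gene Pim3 fell from 30.5 ± 1.51 to 10.3 ± 3.93 CPM (log2 fold change -1.57) and the cytokine gene Osm from 290 ± 41.7 to 141 ± 35.8 CPM (-1.04). Bcl2l1, which encodes the survival protein BCL-XL, rose from 29.1 ± 3.15 to 50.8 ± 5.24 CPM (0.80) and Bcl3, an atypical IkB protein, from 72.3 ± 9.91 to 116 ± 29.5 CPM (0.69). For all 4 genes the groups did not overlap.

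Of 6 targets of STAT6, 1 was lower, 2 were higher and 3 did not pass, with a median of 0.65. This median lies between Il4ra and Arg1 (log2 fold change 0.58), which did not pass. Arg1 was at only 0.453 ± 0.142 CPM in WT and 0.675 ± 0.195 CPM in Cxcr2-/-. The lower gene was Fcer2a, from 2.79 ± 0.987 to 1.55 ± 0.256 CPM (-0.85) with overlapping groups. The higher genes were Il4ra, described above, and Chil3, a chitinase-like protein of myeloid cells. Chil3 rose from 2226 ± 206 to 4822 ± 924 CPM (log2 fold change 1.12). Stat6 itself was lower in the same samples.

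Of 7 targets of STAT4 in lymphocytes, 6 were tested, 2 lower and 1 higher, with a median of -0.34. The homeobox gene Hlx fell from 160.0 ± 7.60 to 120 ± 15.2 CPM (log2 fold change -0.42), and Furin, a proprotein convertase, from 568 ± 93.6 to 430.0 ± 53.2 CPM (-0.40) with overlapping groups. Il18r1, a chain of the interleukin-18 receptor, rose from 33.1 ± 2.65 to 52.4 ± 9.22 CPM (0.66). Ifng, the classical STAT4 target, named after its counts were seen, had 0 to 4 counts in WT and 0 to 5 counts in Cxcr2-/- libraries and was not tested, so that a difference was not detectable at this depth. The 3 named genes thus changed by -0.42 to 0.66 on the log2 scale, beside -3.38 for Stat4.

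**Figure D5:**
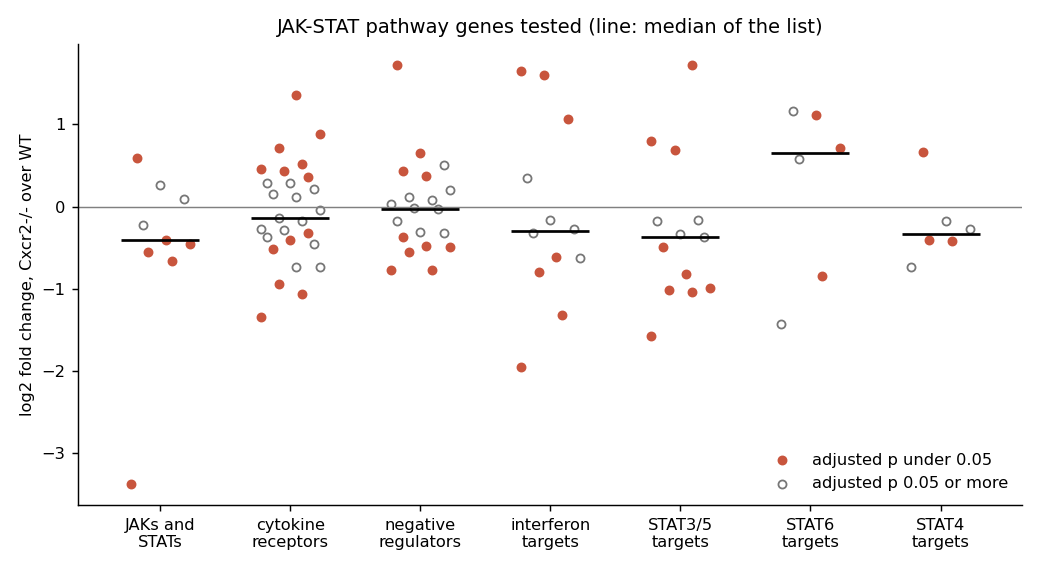
Log2 fold change of Cxcr2-/- over WT of the 9 JAK and STAT genes and of the tested genes of each pathway list (points, filled where adjusted p was under 0.05; lines are medians). Stat4 at -3.38 is below every gene of the 6 other lists, of which the lowest is Rsad2 at -1.95.

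The genes whose level followed Stat4 most closely over the 8 libraries, after the mean of each group was subtracted, were Ppp1r8, Dmxl1 and Usp9x, with Pearson correlations of 0.973, 0.973 and 0.971 among 7501 genes compared. These are descriptions over 8 libraries that share their depth and scaling. The 3 genes were picked as the highest of 7501 correlations over few libraries, and Stat4 had only 72 to 122 counts per Cxcr2-/- library. Shared regulation with Stat4 was not tested. Between the groups these genes changed little beside Stat4, with log2 fold changes of 0.37, -0.25 and -0.03.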

How the data were processed

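Spleen neutrophils of 4 WT and 4 Cxcr2-/- mice were profiled by RNAseq. The authors trimmed reads (minimum length 120 bp), aligned them to mm10 with STAR and deposited whole-number HTSeq counts per Ensembl gene without normalization. Their strand setting and annotation release were not given in the sources used here. GENCODE M21 (GRCm38) named 52081 of 55414 identifiers, and 52046 of these carry another version number there, so positions and exon lengths may differ slightly from those counted.

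Groups and replicate numbers came from the labels. Replicates of a group were not duplicates, since their counts differed beyond sampling noise (chi-square per gene 23.9 to 99.0). Counts were tested in R 4.3.3 with edgeR 4.0.16 (TMM, filterByExpr, glmQLFTest, Benjamini-Hochberg), after the steps had been tested on simulated data. The study's thresholds (adjusted p under 0.05, at least 1.5-fold) were also applied. Ratios were compared with an exact permutation test (Python 3.11.15, scipy 1.17.1) on counts plus 0.5. With 4 mice per group p cannot be under 0.0286. The edgeR p-values set the difference between groups against the spread between mice, which the fit moderates across genes. The permutation p depends only on how the values of the libraries divide between the groups. Genes with more counts carry less counting error.

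Named genes were the 9 JAK and STAT genes, Cxcr2, up to 4 genes per pathway list (the 2 lowest and 2 highest log2 fold changes that passed, with average log2 CPM of at least 3), 6 defining markers, genes that overlap Stat4 and the 3 most like it. Cd3d, Cd4, Cd5, Ifng, Il12rb1, Il12rb2, Arg1, Fcer2a, Cish, Socs5, Jak3 and Insl3 were named after their values were seen. The members and lists were chosen with earlier results of these data known. The promoter windows came from RefSeq (GRCm38.p6).

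Alternatives were DESeq2 1.42.0 (the tool of the study), RLE and upper-quartile normalization, scaling by total counts, no filter on low counts, a block for the replicate number, a minimum of 10 counts in each library, T and natural killer cell markers as a covariate, 5 added counts in the ratios, and each library left out. Protein-coding genes only and a covariate for pairs on no gene were added after seeing the data.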

Additional observations from a re-analysis of the deposited data

How the results depend on the processing

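Stat4, Stat6, Stat5b, Jak1 and Jak2 passed as lower under every alternative run, Stat4 between -3.50 and -3.17 on the log2 scale. Stat5a also passed with at least 10 counts in every library (-0.26) and with protein-coding genes only (-0.30). The sign of Stat3 turned with upper-quartile scaling (-0.033) and total counts (-0.0084), which moved the median of all genes from 0.01 to -0.11 and -0.08. The number of higher genes was 0 with upper-quartile scaling and with the covariate for pairs on no gene, and 0 to 1 with 1 library left out. With 1.5-fold it was 0 with DESeq2, RLE, upper-quartile, total counts, no filter, at least 10 counts, the replicate block, that covariate and protein-coding genes, and 0 to 1 with 1 library left out. With that covariate, which largely followed the genotype, 1486 genes were lower and 1597 higher over all genes, and 6 pathway genes were higher.

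The labels do not say whether replicate numbers pair the mice. Same-numbered deviations correlated by -0.31 to 0.24, and 2 of 4 WT libraries correlated best with their own number. So few libraries cannot decide whether the numbers pair the mice. With the replicate block 3349 genes passed as lower and 3719 as higher, and Stat4 was at -3.40. As pairs, the ratios of Stat4 had p = 0.125 in an exact permutation test, the smallest that 4 pairs can give, at -3.94 (Stat2), -3.49 (Stat3), -3.17 (Stat5a), -2.85 (Stat5b), -2.75 (Stat6), -2.99 (Jak1), -2.95 (Jak2) and -3.67 (Tyk2).

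With 1 library left out the ratios had p = 0.0571, the smallest that 4 against 3 can give in this exact test, and ranged from -4.10 to -3.68 (Stat2), -3.61 to -3.34 (Stat3), -3.29 to -3.04 (Stat5a), -2.96 to -2.73 (Stat5b), -2.85 to -2.62 (Stat6), -3.09 to -2.88 (Jak1), -3.07 to -2.81 (Jak2) and -3.81 to -3.53 (Tyk2). Depth limits Stat4 most, where 72 counts carry a counting error of 11.8%.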

Other observations

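Jak3, the kinase that pairs with the common gamma chain of interleukin receptors, was not among the 9 genes and is given here after its values were seen. It was at 33, 37.0, 32.8 and 29.1 CPM in WT replicates 1 to 4 and at 154, 112, 123 and 108 CPM in Cxcr2-/- replicates 1 to 4. Every Cxcr2-/- library was above every WT library, and Jak3 rose 3.76-fold (log2 fold change 1.91, SE 0.12, edgeR quasi-likelihood, Benjamini-Hochberg adjusted p = 3.03e-07). Per exon length it went from 6.16 ± 0.601 to 23.2 ± 3.96 CPM per kb, which places it among the low kinases, near Tyk2, in WT and between Tyk2 and Jak2 in Cxcr2-/- samples. Insl3 overlaps Jak3 on the same strand and had 8 to 22 counts in WT and 38 to 85 counts in Cxcr2-/- libraries.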
